A study of Rattus norvegicus with 16 samples.

Results

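The genes described here carry signals from receptors at the cell surface to cyclic nucleotides inside the cell, and they were followed in rat pontine nuclei after injury to the axons those nuclei send out. Members were the Affymetrix probe sets whose single platform symbol began with Gna, Gnb or Gng (alpha, beta and gamma subunits of heterotrimeric G proteins), Rgs (regulators of G protein signalling), Adcy (adenylyl cyclases), Gucy (guanylyl cyclases), Pde and a digit (phosphodiesterases), or Prkac and Prkar (catalytic and regulatory subunits of protein kinase A). Probe sets for Adcyap1, a peptide precursor whose symbol also begins with Adcy, were left out. The rule found 79 probe sets of 56 genes among 8799 probe sets of 4358 genes on the array, and it used no measured value. A further probe set, shared by Gnai1 and Gnai3, carried several symbols and was left out.

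An activated receptor exchanges GDP for GTP on the alpha subunit, which parts from the beta-gamma dimer, and both then act on effectors. Stimulatory alpha subunits (Gs, Golf) raise adenylyl cyclase activity and inhibitory ones (Gi, Gz) lower it, RGS proteins shorten the signal by speeding GTP hydrolysis, and phosphodiesterases break down cyclic AMP and cyclic GMP. Cyclic AMP frees the catalytic subunits of protein kinase A from its regulatory subunits. In injured neurons cyclic AMP is well known for its link to axon regrowth.

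The tissue was the pontine nuclei, brainstem nuclei whose neurons project to the cerebellum, and total RNA from them was hybridised to 16 single-colour arrays. The projecting axons had been transected, exposed to lysolecithin, a lipid used to remove myelin, or given saline. For each intervention, nuclei of the lesion side were collected on days 4, 10 and 37 and nuclei of the contralateral side on days 10 and 37, and 1 further array held nuclei of a healthy animal. Every condition therefore had 1 array. An intervention's arrays of 3 different days served as its replicates. Against the controls, each p-value measures the spread between arrays of a group, which differ in day. Contrasts within the lesion side or within the contralateral side fit intervention and day. Their p-values measure how unevenly the interventions differ from day to day. The side comparison fits the pair and measures the spread between pairs. For the change of side differences between days, the p-value measures the spread between interventions. The labels used here do not say how many animals entered an array, or their strain, sex or age. The 7 arrays called controls below are the 6 contralateral arrays and the healthy array. The contralateral nuclei belong to the same 3 interventions and are not uninjured tissue by label. RNA from whole nuclei cannot tell fewer cells of a type apart from less RNA per cell.

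Between 39.9% and 47.1% of probe sets were called Present on an array, the healthy array being the lowest. The 3' to 5' signal ratio of actin, a measure of RNA quality, lay at 1.07 to 1.42 on transection lesion arrays, 1.20 to 1.44 on lysolecithin lesion arrays and 1.41 to 1.68 on saline lesion arrays. The summed signal of 7 neuronal marker genes lay at 38740 to 47078 on transection lesion arrays, 45221 to 47586 on lysolecithin lesion arrays, 46419 to 54094.5 on saline lesion arrays and 43560 to 55039 on controls. The median member signal was 753 on the saline day 4 lesion array and 845 to 1056 on the other arrays, so some counts over the members are also given below without that array.

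Of the 79 probe sets, 37 were called Present on all 16 arrays and 27 on none. A probe set entered the tests when it was Present on at least 3 arrays, which 50 probe sets of 35 genes were. The tested members were 15 probe sets of 7 alpha subunit genes, 6 of 3 beta genes, 5 of 4 gamma genes, 5 of 5 RGS genes, 3 of 3 adenylyl cyclase genes, 2 of 2 guanylyl cyclase genes, 7 of 6 phosphodiesterase genes, and 4 of 2 catalytic and 3 of 3 regulatory protein kinase A genes. Genes with no tested probe set were Gna15, Gnb4, Gng11, Rgs12, the cyclases Adcy4, Adcy5, Adcy6 and Adcy10, the guanylyl cyclases Gucy1b2, Gucy2c, Gucy2d, Gucy2e, Gucy2f and Gucy2g, the phosphodiesterases Pde1c, Pde3a, Pde4c, Pde4d, Pde5a and Pde7a, and Prkar2a. The membrane guanylyl cyclases of retina and gut thus fell among probe sets that were not detected. Further probe sets of Gng5, Gng8, Rgs8, Pde4a and Pde4b also went untested beside a tested one of the same gene. Probe sets whose names differ only in a "g" were built on the same sequence and do not count as separate evidence.

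On the lesion side, transection against saline gave the only members past the threshold, an adjusted p under 0.05 in limma with Benjamini-Hochberg adjustment over 4413 probe sets. A probe set of Gnai2, the alpha subunit of the inhibitory G protein Gi2, and a probe set of Gnb1, a widely used beta subunit, rose. The other Gnai2 probe sets differed by 0.09 and -0.15, and the called Gnai2 probe set stood at 0.01 against the controls, with saline at -0.72. Rgs8, which speeds GTP hydrolysis on Gi and Go, lay just outside the threshold and was lower after transection, as were the phosphodiesterases Pde2a and Pde1b. Pde2a was called Present on no transection array, so the filter favoured a low transection signal for it. The 2 called members of 50 stand beside 0.725% called of all probe sets. At an unadjusted p under 0.05 there were 12 members (7 higher, 5 lower), 24% of the 50, beside 16.9% of all probe sets. With a Present call required on at least 8 arrays, that count was 10 of 44 members, 7 of them higher. Without the saline day 4 array the number of members past the adjusted threshold was 0 instead of 2.

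Lysolecithin against saline called no member, beside 0.159% of all probe sets, and 12 members had an unadjusted p under 0.05 (9 higher, 3 lower), beside 20.6%. That number was 6 without the saline day 4 array, 5 without the lysolecithin day 4 array and 7 without the lysolecithin day 37 array. Transection against lysolecithin called no member, beside 0.476%, and 10 members had an unadjusted p under 0.05 (3 higher, 7 lower), beside 13.6%. With a Present call required on at least 8 arrays, that last count was 8 of 44 members, 3 of them higher. The median log2 difference of the 50 members was 0.06 for transection against saline and 0.11 for lysolecithin against saline, where the medians of all probe sets were 0.00 and 0.02. Without the saline day 4 array those member medians were 0.01 and 0.05. The fit shares its saline arrays between both contrasts.

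Against the 7 controls, no member passed the adjusted threshold after any intervention. The adjusted background was 0.0227% for transection, 0% for lysolecithin and 0% for saline. In limma at an unadjusted p under 0.05, transection had 11 members (4 higher, 7 lower) beside 11.0% of all probe sets, lysolecithin had 0 beside 4.65%, and saline had 11 (2 higher, 9 lower) beside 12.4%. Members were thus marked after transection and after saline at 22% of 50 each. Of the 50, 22 were higher after transection, 25 after lysolecithin and 16 after saline, and without the saline day 4 array the saline number was 26, with 4 at an unadjusted p under 0.05. The saline count was 7 without the contralateral transection array of day 10, and the transection count was 7 without the transection day 4 array. Among the lower transection members, Pde2a, Pde4a and a Gnaz probe set were Absent on every transection lesion array, so the filter favoured low transection signals for them. With a Present call required on at least 8 arrays, the transection count was 8 of 44 members, 4 of them higher.

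**Figure D1:**
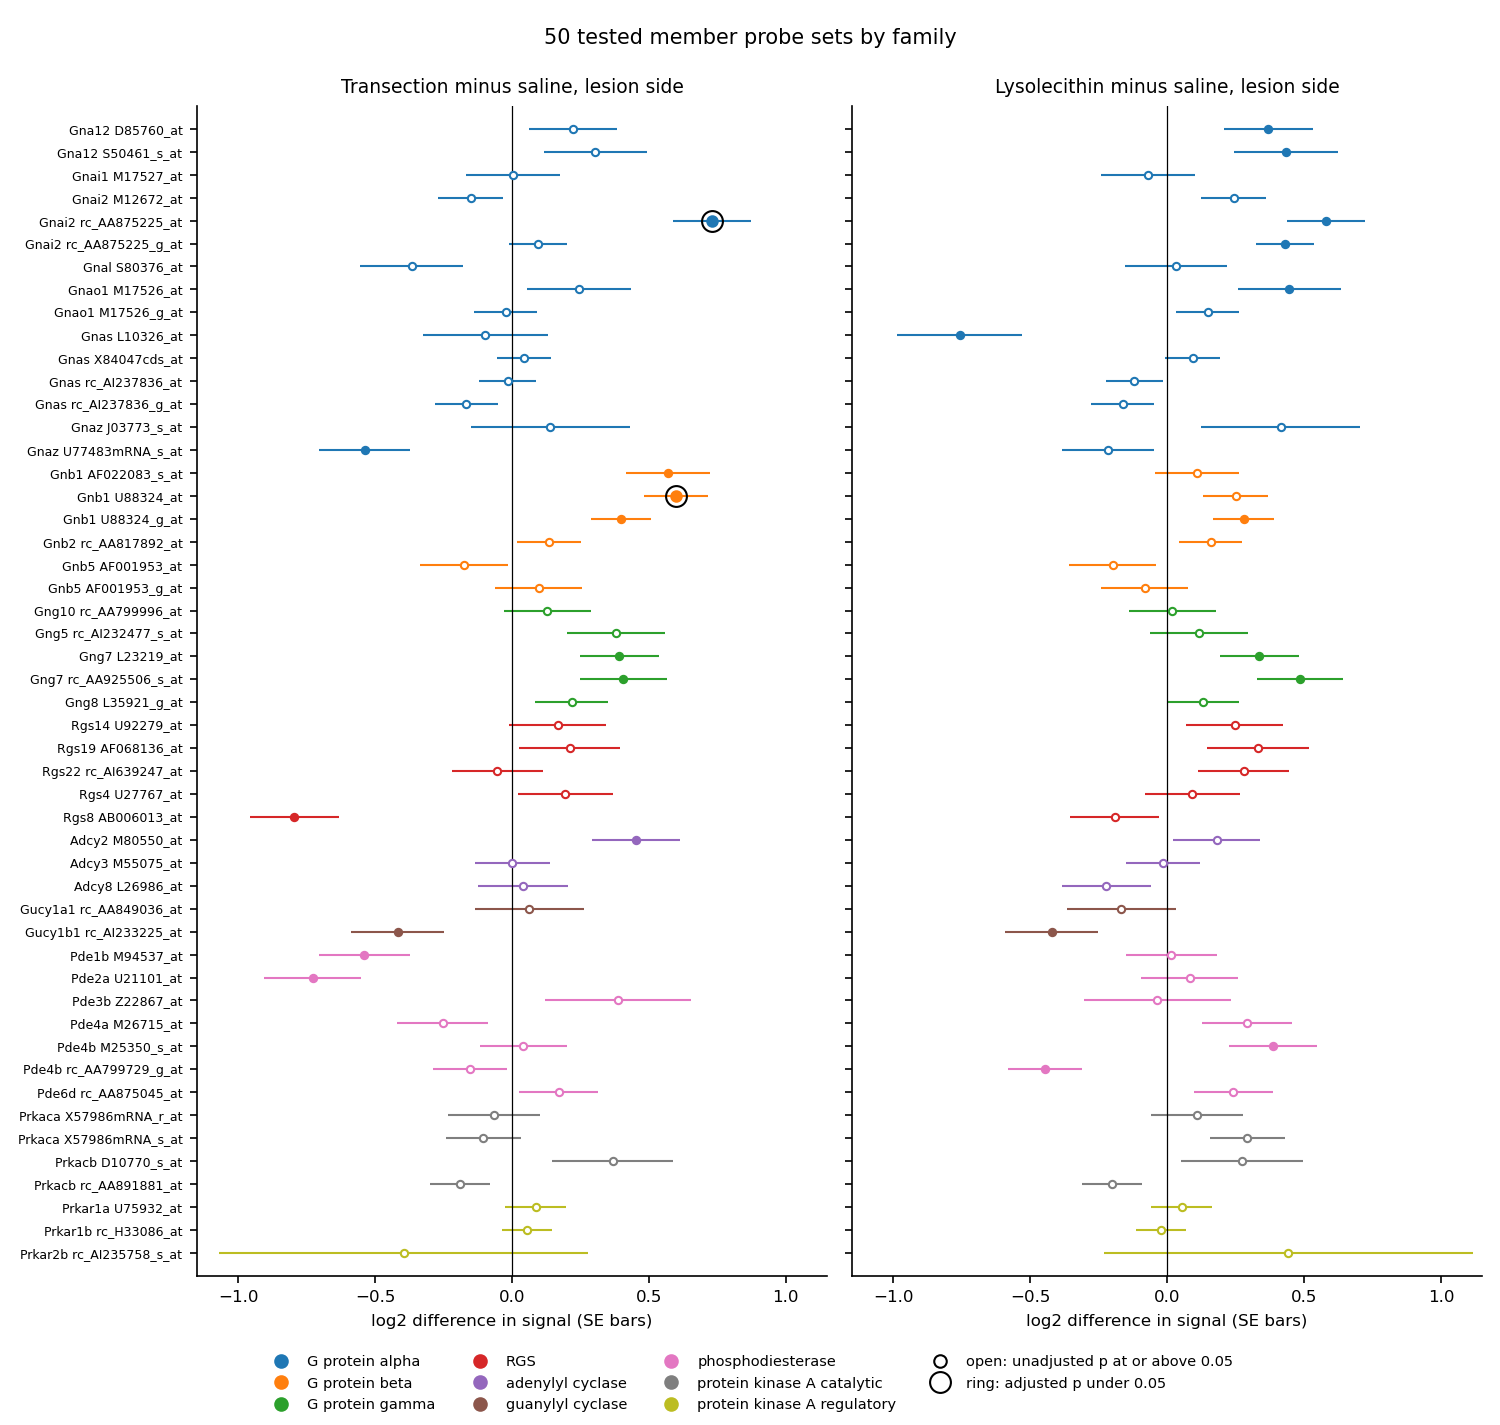
Log2 difference in signal (horizontal, bars are standard errors) of the 50 tested member probe sets, coloured by family, for transection minus saline on the left and lysolecithin minus saline on the right. Filled points have an unadjusted p under 0.05, and the 2 ringed points, Gnai2 at 0.73 and Gnb1 at 0.60 on the left, passed the adjusted threshold.

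Promoters are shown for Gnb1 and Rgs8, which carried differences, and for Gnao1, whose window held the cyclic AMP response element, the site where CREB links cyclic AMP to transcription. Gnai2 had no entry. RefSeq's promoter table for build GRCr8 matched 41 of the 56 genes with 53 windows, each covering the 250 bases before a start site. The element TGACGTCA, read on both strands, was in 1 of these windows and in 1.59% of 33469 rat promoter windows. That window belonged to Gnao1, the alpha subunit of Go, at chr19:11198438-11198687 on the minus strand with a GC content of 83.6%. The windows of Gnb1 at chr5:171378113-171378362 on the plus strand (GC 47.6%) and of Rgs8 at chr13:68366648-68366897 on the plus strand (GC 53.6%) did not hold these letters. The AP-1 letters TGACTCA or TGAGTCA, searched because AP-1 factors are induced by nerve injury, were in 4.05% of all windows and in 2 of the 53, those of Gnb2 and of the untested Rgs12. Sequences run 5′ to 3′ and capitals mark the cyclic AMP response element.
Gnao1: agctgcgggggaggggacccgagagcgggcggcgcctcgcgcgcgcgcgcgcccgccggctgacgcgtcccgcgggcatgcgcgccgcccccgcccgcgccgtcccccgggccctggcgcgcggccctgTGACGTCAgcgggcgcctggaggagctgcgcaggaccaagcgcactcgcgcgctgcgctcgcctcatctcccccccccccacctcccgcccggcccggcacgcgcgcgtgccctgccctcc
Gnb1: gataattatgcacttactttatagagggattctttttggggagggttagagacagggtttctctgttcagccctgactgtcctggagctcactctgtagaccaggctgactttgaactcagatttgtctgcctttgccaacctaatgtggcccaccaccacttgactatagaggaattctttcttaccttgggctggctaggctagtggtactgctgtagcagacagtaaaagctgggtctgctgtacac
Rgs8: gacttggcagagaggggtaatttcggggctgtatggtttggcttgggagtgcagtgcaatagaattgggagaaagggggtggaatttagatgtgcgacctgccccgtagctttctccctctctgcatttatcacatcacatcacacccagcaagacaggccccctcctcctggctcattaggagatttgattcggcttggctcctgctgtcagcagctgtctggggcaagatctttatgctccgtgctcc

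The alpha subunits divided into probe sets that moved together and probe sets that did not, even for a single gene. Gnai2 rc_AA875225_at gave signals of 3100.9, 5037.7 and 4865.4 on transection lesion arrays of days 4, 10 and 37, 3482.5, 3836.0 and 4173.2 on lysolecithin lesion arrays and 2135.0, 2324.1 and 3334.6 on saline lesion arrays. Transection was above saline on each day, although its day 4 signal lay below that of saline on day 37, so the groups overlapped. The log2 difference of transection and saline was 0.73 ± 0.14 (SE; 1.66-fold; limma adjusted p = 0.0433). Lysolecithin against saline gave 0.58 ± 0.14 (adjusted p = 0.104).

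The controls of this Gnai2 probe set ran between 2760.7 and 6781.7 with a median of 3681.3, and the highest was the healthy array. Transection against these controls gave a log2 difference of 0.01 ± 0.24 (limma adjusted p = 0.995), whereas saline against them gave -0.72 ± 0.24 (adjusted p = 0.354). Transection arrays thus averaged at the level of the controls and saline arrays below it, although the saline day 37 array, at 3334.6, lay within the control range. The other probe sets of Gnai2 did not follow. Gnai2 rc_AA875225_g_at, built on the same sequence, gave 0.09 ± 0.11 in transection against saline and 0.43 ± 0.11 in lysolecithin against saline (limma adjusted p = 0.104 for lysolecithin). Gnai2 M12672_at read 2050.8, 2506.4 and 2724.7 after transection, 3048.7, 3326.6 and 3142.1 after lysolecithin and 2602.5, 2733.3 and 2696.8 after saline, a log2 difference of -0.15 ± 0.12 for transection against saline. The call for Gnai2 therefore rested on 1 of its 3 probe sets. With a single lesion array left out its adjusted p ran between 0.0245 and 0.275, and it passed only without the saline day 37 or the lysolecithin day 37 array.

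**Figure D2:**
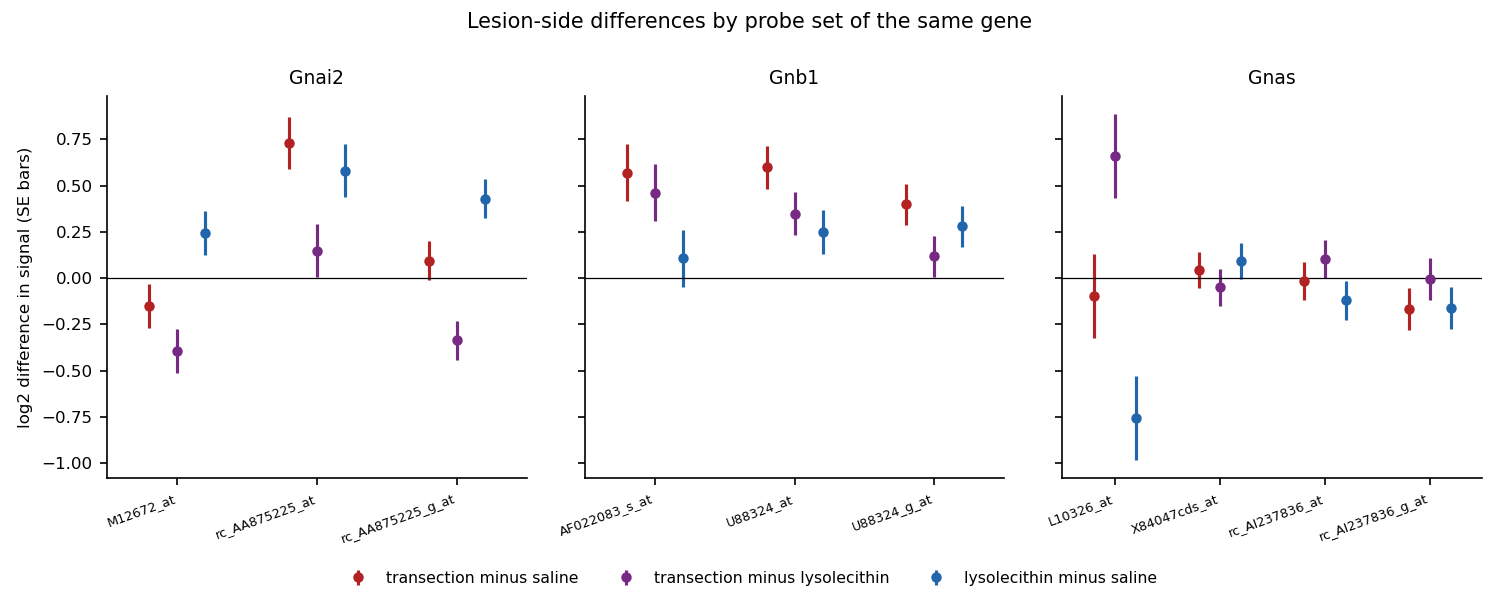
Log2 difference in signal on the lesion side (vertical, bars are standard errors) for each probe set of Gnai2, Gnb1 and Gnas in transection minus saline, transection minus lysolecithin and lysolecithin minus saline. For transection minus saline the Gnb1 probe sets lie at 0.40 to 0.60, while those of Gnai2 spread between -0.15 and 0.73.

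Among the other alpha subunits, Gna12 was higher after lysolecithin than after saline on all 3 days in both probe sets. Gna12 D85760_at gave 994.5, 951.1 and 1042.6 after lysolecithin, against 538.3, 920.9 and 908.3 after saline, without overlap (0.37 ± 0.16 log2, limma adjusted p = 0.229). Gna12 S50461_s_at gave 353.4, 342.4 and 374.6 after lysolecithin, against 182.9, 330.3 and 288.2 after saline (0.43 ± 0.19, limma adjusted p = 0.227). In both probe sets the saline day 4 array was the lowest of all, and without it the differences were 0.16 and 0.21.

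Gnas encodes the stimulatory subunit Gs. Its probe set L10326_at read 13638.5, 6604.6 and 6019.9 on days 4, 10 and 37 after transection, 5163.4, 5155.7 and 5138.1 after lysolecithin and 13250.5, 9994.5 and 5010.8 after saline, with controls between 4648.0 and 10285.7 around 6277.2. High lesion-side signals were those of transection on day 4 and of saline on days 4 and 10, while the lysolecithin lesion arrays hardly varied. The highest control, at 10285.7, was the contralateral lysolecithin array of day 37. Lysolecithin against saline gave a log2 difference of -0.76 ± 0.23 (limma adjusted p = 0.118) and day 37 against day 4 gave -0.86 ± 0.23 (adjusted p = 0.148).

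Gnaz encodes Gz, an inhibitory alpha subunit of neurons. Gnaz U77483mRNA_s_at was called Absent on all 3 transection arrays, at 392.8, 384.3 and 520.3, and Present or Marginal on the saline arrays, at 616.8, 604.1 and 668.4. Transection was 1.45-fold lower than saline in this probe set and 1.39-fold lower than the controls (limma adjusted p = 0.155 and 0.329). The controls ran between 465.8 and 768.6. The lysolecithin lesion arrays were also called Absent, at 646.8, 381.8 and 634.4. Its Present calls all came from saline lesion arrays and contralateral arrays, so the filter itself favoured a low transection signal. Gnaz J03773_s_at, Present on 5 arrays, did not follow, with 72.3, 145.0 and 178.7 after transection, against 63.5, 158.0 and 133.8 after saline (0.14 ± 0.29 log2, limma adjusted p = 0.836). The Gnaz difference from saline thus rested on 1 of 2 probe sets. Gnal, the Golf subunit of olfactory and striatal neurons, read 405.0, 266.1 and 364.5 after transection, 432.9, 339.7 and 631.7 after lysolecithin and 354.4, 424.6 and 576.9 after saline, groups that overlapped.

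Gnao1, the alpha subunit of Go and a main G protein of brain, read 1176.5, 1515.5 and 1477.3 in M17526_at after transection, 1768.0, 1290.9 and 1768.5 after lysolecithin and 844.7, 1455.7 and 1280.7 after saline. The lysolecithin arrays overlapped those of saline (0.45 ± 0.19 log2, limma adjusted p = 0.218). Gnai1, the Gi1 subunit, read 849.4, 717.6 and 892.4 after transection, 610.4, 854.1 and 895.1 after lysolecithin and 762.7, 973.7 and 727.7 after saline, also with overlap. The other 3 probe sets of Gnas spread over a narrower range than L10326_at did. Of them, X84047cds_at read 12063.4, 11651.7 and 12176.5 after transection, 12402.1, 12582.5 and 12134.5 after lysolecithin and 10098.6, 12371.4 and 12485.2 after saline.

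The beta subunits form the membrane-bound dimer with a gamma subunit. All 3 probe sets of Gnb1 were higher after transection than after saline on all 3 days of the lesion side. On lesion minus contralateral differences of days 10 and 37, U88324_g_at and AF022083_s_at turned to -0.03 and -0.12, and U88324_at fell to 0.23. Gnb1 U88324_at read 2175.3, 2063.2 and 2251.8 after transection, 1684.1, 1590.8 and 1814.4 after lysolecithin and 1310.9, 1377.8 and 1590.6 after saline. The 3 interventions did not overlap in this probe set: transection was highest and saline lowest, although the highest saline signal almost met the lowest lysolecithin signal. Transection against saline gave 0.60 ± 0.12 log2 (1.51-fold; limma adjusted p = 0.045) and transection against lysolecithin gave 0.35 (adjusted p = 0.225).

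Controls of Gnb1 U88324_at ran between 1424.6 and 2060.6 around 1678.0, so every transection array was above every control (0.35 ± 0.12 log2, limma adjusted p = 0.293), and the saline arrays were lower than the controls by a log2 difference of -0.25 (adjusted p = 0.399). Gnb1 AF022083_s_at read 893.7, 895.9 and 1030.3 after transection, against 518.6, 794.7 and 596.8 after saline (0.57 ± 0.15, limma adjusted p = 0.11). Gnb1 U88324_g_at read 3407.4, 2826.9 and 3054.8 after transection, against 2480.3, 2090.7 and 2463.4 after saline (0.40 ± 0.11, limma adjusted p = 0.114). Neither of these overlapped, and neither passed the adjusted threshold. The call for Gnb1 U88324_at was lost without any single lesion array, the adjusted p then lying between 0.0529 and 0.223.

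The other tested beta subunits, Gnb2 and Gnb5, gave smaller differences. Gnb2 read 2730.7, 2722.8 and 2565.6 after transection, 2986.1, 2581.6 and 2604.7 after lysolecithin and 2418.6, 2307.4 and 2579.2 after saline (0.14 ± 0.12 log2 for transection against saline, limma adjusted p = 0.577). Gnb5, the divergent beta subunit that pairs with some RGS proteins, read 983.2, 876.6 and 802.0 in AF001953_at after transection, 819.5, 800.5 and 1003.9 after lysolecithin and 818.1, 1100.2 and 1114.6 after saline. The groups of both genes overlapped.

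All 5 tested gamma probe sets had a positive difference in transection against saline, with a family median of 0.38, and in lysolecithin against saline, with a median of 0.13. Gng7, which pairs with Golf in striatum, read 340.0, 326.3 and 354.5 in rc_AA925506_s_at after transection and 360.7, 324.3 and 397.9 after lysolecithin, against 211.7, 248.7 and 305.1 after saline. Both injured groups lay above saline without overlap (0.41 ± 0.16 and 0.48 ± 0.16 log2, limma adjusted p = 0.222 and 0.133). In the controls this probe set ran between 303.9 and 464.5 around 341.6, so that saline was below most controls (-0.47, limma adjusted p = 0.329) and the injured groups were within them.

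The second Gng7 probe set, L23219_at, read 768.5, 1088.4 and 1012.9 after transection, 702.3, 1172.1 and 916.7 after lysolecithin and 692.8, 827.9 and 643.9 after saline, with overlap. Its differences from saline were 0.39 ± 0.14 after transection and 0.34 after lysolecithin (limma adjusted p = 0.206 and 0.221). Gng5 read 2944.7, 2441.5 and 2572.2 after transection, against 1581.1, 2424.2 and 2182.0 after saline and controls between 1505.9 and 2445.8 around 1658.6. Its transection arrays lay above every saline array, and against the controls, which they overlapped, the difference was 0.52 ± 0.17 (limma adjusted p = 0.281). Gng8 read 975.3, 858.8 and 898.6 after transection, above all 7 controls at 619.6 to 813.2 (0.29, limma adjusted p = 0.321). Its lysolecithin arrays, at 831.0, 894.2 and 843.5, also lay above every control, and its saline arrays read 742.8, 873.4 and 730.8.

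RGS proteins end G protein signals. Rgs8, known from cerebellar Purkinje cells, read 231.5, 215.5 and 323.0 after transection, 401.5, 348.7 and 431.8 after lysolecithin and 479.5, 441.4 and 431.2 after saline. Every transection lesion array was below every lesion array of lysolecithin and saline. Transection against saline gave -0.79 ± 0.16 log2 (0.577-fold; limma adjusted p = 0.052) and transection against lysolecithin gave -0.60 ± 0.16 (adjusted p = 0.185). Against the controls, at 292.8 to 497.7 around 397.8, it gave -0.65 ± 0.16 (limma adjusted p = 0.147). The lowest control was the contralateral transection array of day 37. Of 4 cerebellar granule and Purkinje cell markers, 2 were on the array and 1 was detected, and their summed signal was 532 to 538 after transection, 397 to 508 after lysolecithin and 429 to 523 after saline. That list's part in the Rgs8 values was not tested.

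Rgs22 read 298.7, 226.4 and 254.1 after transection, against controls between 259.1 and 456.1 around 342.9 (-0.35, limma adjusted p = 0.439). Rgs4, which acts on Gi and Gq, read 961.3, 766.6 and 910.9 after transection, 879.0, 796.9 and 771.2 after lysolecithin and 584.3, 855.8 and 887.1 after saline. Its 3 groups overlapped, and the low value was again the saline day 4 array. Rgs19, which acts on Gi family subunits, read 354.0, 408.6 and 310.4 after transection, 484.1, 334.9 and 359.7 after lysolecithin and 273.7, 301.0 and 344.6 after saline, with overlap between transection and saline (0.21 ± 0.19 log2, limma adjusted p = 0.585). Rgs14 was called Present on 5 arrays and read 387.8, 672.3 and 577.1 after transection, 446.0, 616.0 and 650.7 after lysolecithin and 492.8, 429.3 and 497.9 after saline.

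Adenylyl cyclases make cyclic AMP. Adcy2, a calcium-insensitive form that beta-gamma dimers activate together with Gs, read 1094.5, 1523.6 and 1420.6 after transection, 879.2, 1531.3 and 991.4 after lysolecithin and 948.1, 957.5 and 1003.8 after saline. Transection lay above saline without overlap (0.45 ± 0.16 log2, limma adjusted p = 0.192). Its controls ran between 874.1 and 2084.7 around 1454.9, and saline was lower than the controls by a log2 difference of -0.50 (limma adjusted p = 0.384). Adcy8, which calcium and calmodulin stimulate, read 388.1, 285.4 and 289.9 after transection and 329.7, 312.3 and 285.9 after saline, against controls between 196.1 and 294.6 around 237.8. Transection and saline thus differed from controls in the same direction (0.36 and 0.32, limma adjusted p = 0.382 and 0.394). Adcy3 read 797.6, 1004.3 and 1111.5 after transection, 883.8, 963.2 and 1009.9 after lysolecithin and 982.5, 881.5 and 1025.8 after saline, groups that overlapped.

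Gucy1b1, the haem-binding beta subunit of the soluble guanylyl cyclase that senses nitric oxide, read 2567.1, 1823.1 and 2205.8 after transection, 1970.9, 2733.0 and 1899.7 after lysolecithin and 3089.3, 3258.6 and 2458.3 after saline. Both injured groups averaged below saline by the same amount, -0.42 log2, with overlap (limma adjusted p = 0.238 after transection and 0.198 after lysolecithin). Controls ran between 1721.0 and 2846.9 around 2396.4, and every transection and lysolecithin array lay within them. The saline arrays of days 4 and 10 lay above all controls. Gucy1a1, the partner subunit of Gucy1b1, differed by 0.06 after transection and by -0.17 after lysolecithin against saline.

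Several phosphodiesterases had lower signals after transection, none past the adjusted threshold. Pde2a, which breaks down both cyclic nucleotides and is activated by cyclic GMP, read 111.7, 131.1 and 162.7 after transection, 229.7, 257.0 and 253.8 after lysolecithin and 195.4, 223.1 and 285.6 after saline. All 3 transection arrays were called Absent and lay below every other array, the lowest of which read 184.4. The estimated signal was 1.66-fold lower than after saline, 1.75-fold lower than after lysolecithin and 1.66-fold lower than in controls (limma adjusted p = 0.0897, 0.1 and 0.0736). Pde2a was dim throughout, with a Present call on 5 of 16 arrays. Those were the saline arrays of days 10 and 37 on both sides and the lysolecithin day 4 lesion array. No transection array helped it pass the filter, so the filter itself favoured a low transection signal.

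Pde1b, a calcium and calmodulin dependent form, read 848.0, 1596.6 and 1873.2 after transection, 1785.5, 1904.6 and 2396.7 after lysolecithin and 1623.3, 2266.9 and 2141.4 after saline, with controls between 1597.0 and 2472.5 around 2234.5. The transection array of day 4 lay below all saline and control arrays. That of day 10 lay barely below them, at 1596.6 against a lowest control of 1597.0, and that of day 37 lay within them. Transection against saline gave -0.54 ± 0.17 log2, against lysolecithin -0.56 and against controls -0.61 (limma adjusted p = 0.15, 0.2 and 0.274). Pde4a, a form specific for cyclic AMP, read 573.2, 727.4 and 876.3 after transection, all Absent. Its controls ran between 855.5 and 1533.1 around 1273.0. Among them only the contralateral day 10 arrays of lysolecithin and transection were Present. Transection was 1.62-fold lower than the controls (limma adjusted p = 0.232), with the day 37 array within their range. Its saline arrays, at 581.1, 916.7 and 1171.8, overlapped those of transection, and that at 581.1 was called Present. No transection lesion array helped Pde4a pass the filter, so the filter favoured a low signal there.

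Pde4b, the other detected form specific for cyclic AMP, had probe sets that ran against each other. Pde4b rc_AA799729_g_at read 2176.8, 2214.0 and 2330.3 after lysolecithin, against 3436.2, 3266.3 and 2533.8 after saline (-0.44 ± 0.14, limma adjusted p = 0.119). Pde4b M25350_s_at read 294.8, 342.0 and 398.3 after lysolecithin, against 192.0, 306.6 and 290.9 after saline (0.39, limma adjusted p = 0.208). No direction can be given for the gene.

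Pde3b, which cyclic GMP inhibits, read 227.8, 158.2 and 116.5 after transection, 96.0, 109.5 and 150.3 after lysolecithin and 140.9, 124.9 and 97.9 after saline. Pde6d, a protein that carries prenylated proteins and is named for the photoreceptor enzyme, read 590.5, 604.4 and 755.3 after transection, 697.4, 685.3 and 656.0 after lysolecithin and 550.2, 499.0 and 681.7 after saline. Transection and saline overlapped in both. Over the family, 3 of 7 probe sets were higher in transection against saline with a median of -0.15, and 2 of 7 in transection against lysolecithin with a median of -0.35. The summed signal of the neuronal markers, in ranges given above that overlap between transection and saline arrays, reached lower on transection arrays, and its part in these values was not tested.

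**Figure D3:**
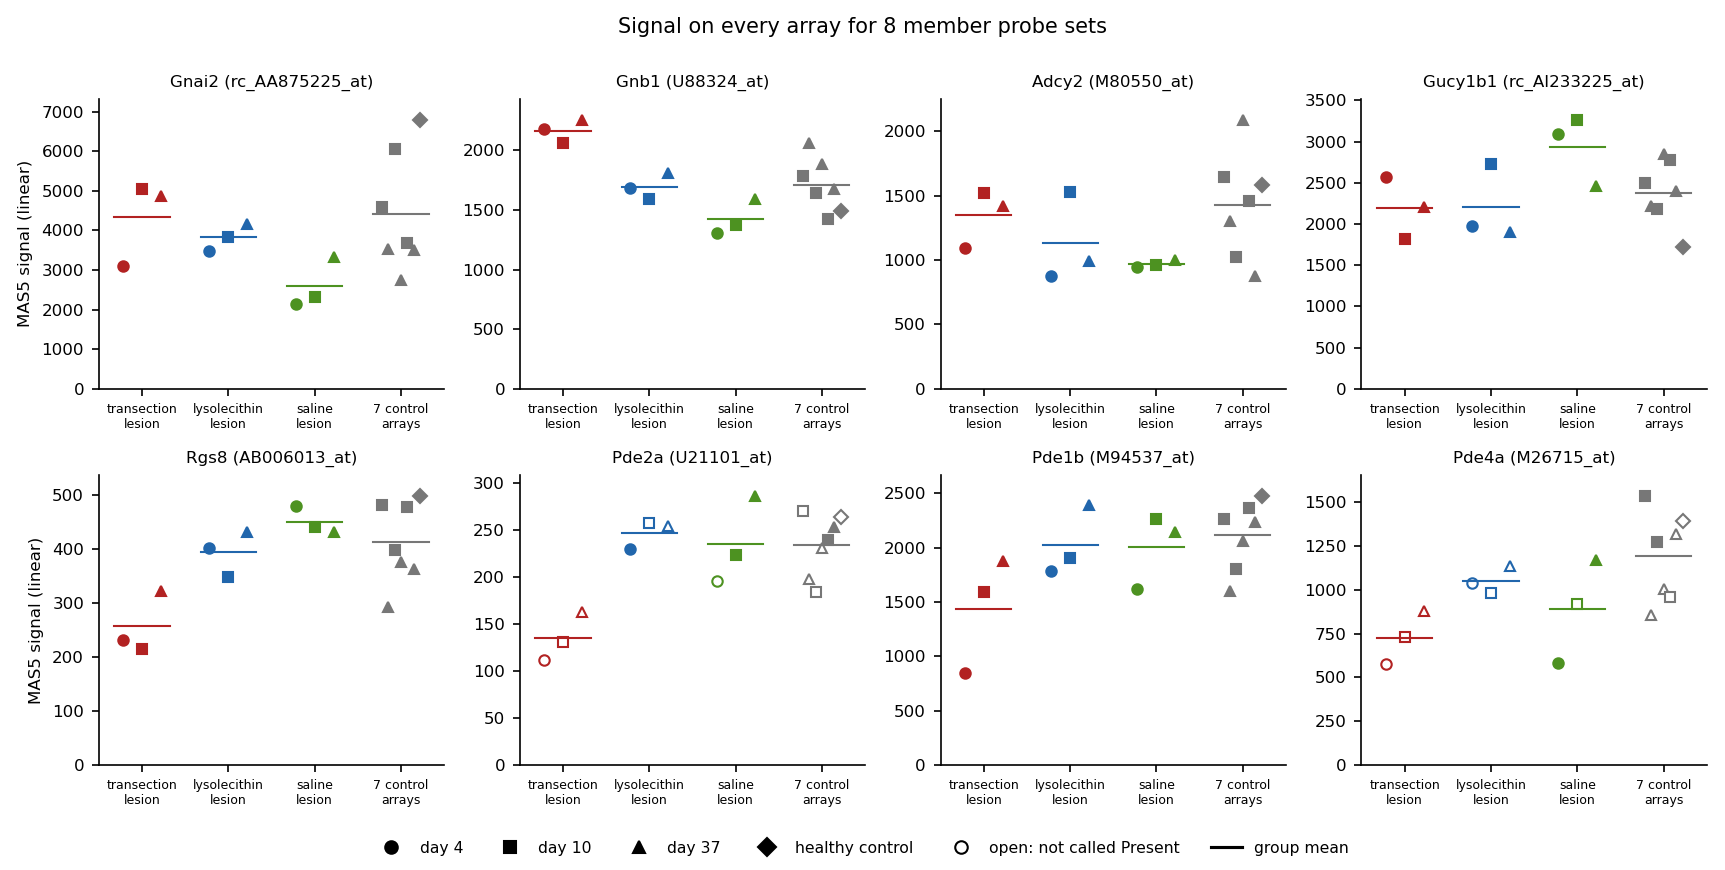
Linear MAS5 signal on every array for 8 probe sets, grouped as transection, lysolecithin and saline lesion arrays and the 7 controls, with marker shapes for days, open markers for arrays not called Present and lines for group means. Pde2a reads 111.7 to 162.7 on transection arrays, below all others, and Gnb1 reads 2063.2 to 2251.8 there, above all others.

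Protein kinase A is the main target of cyclic AMP. Prkaca X57986mRNA_s_at, for the alpha catalytic subunit, read 1420.3, 1397.1 and 1487.3 after transection, 1786.1, 1663.3 and 2284.1 after lysolecithin and 1599.0, 1583.1 and 1451.2 after saline, with controls between 1551.4 and 2141.4 around 1876.5. All transection arrays lay below all lysolecithin arrays and all controls (-0.40 and -0.38 log2, limma adjusted p = 0.234 and 0.243). Saline was also lower than the controls, by a log2 difference of -0.28 (limma adjusted p = 0.379). The other Prkaca probe set, X57986mRNA_r_at, read 440.9, 557.6 and 516.6 after transection and 457.8, 521.5 and 775.9 after lysolecithin. Its controls ran between 536.8 and 1075.1. Transection overlapped both, so the separation held for X57986mRNA_s_at alone. Prkacb rc_AA891881_at, for the beta catalytic subunit, read 5244.6, 5036.1 and 5826.1 after transection, 5202.8, 5744.4 and 5022.6 after lysolecithin and 6127.2, 6340.4 and 5874.1 after saline. It differed from saline by -0.19 after transection and -0.20 after lysolecithin, without overlap in either (limma adjusted p = 0.399 and 0.315). Prkacb D10770_s_at went the other way, with 352.5, 321.9 and 318.5 after transection and 288.3, 299.9 and 340.7 after lysolecithin, against 178.2, 393.6 and 227.6 after saline. Its differences from saline were 0.37 ± 0.22 and 0.27 ± 0.22 with overlap (limma adjusted p = 0.419 and 0.501), so no direction can be given for Prkacb.

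The type I regulatory subunits varied little. Prkar1a read 2879.3, 3232.1 and 2965.2 after transection, 2733.4, 3244.8 and 2899.4 after lysolecithin and 2468.4, 3202.9 and 2911.9 after saline. Prkar1b, the form of neurons, read 12940.1, 15136.9 and 13235.6 after transection, 12444.0, 13579.7 and 13032.4 after lysolecithin and 11485.5, 14261.0 and 14091.6 after saline. Their differences between transection and saline were 0.09 ± 0.11 and 0.06 ± 0.09, and in both genes the groups overlapped. Prkar2b was dim, with signals between 8.0 and 200.6 and a Present call on 4 of 16 arrays.

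Days were compared over the 3 interventions on the lesion side. No member passed the adjusted threshold for day 10 against day 4, day 37 against day 4 or day 37 against day 10, beside backgrounds of 0.0453%, 0.0227% and 0%. In limma at an unadjusted p under 0.05 there were 9 members (8 higher, 1 lower), 7 (6 higher, 1 lower) and 3 (2 higher, 1 lower), beside 13.2%, 16.4% and 7.84% of all probe sets. The 9 became 4 without the transection day 4 array and 3 without the transection day 10 array. The 3 became 0 without the lysolecithin day 10 array, 1 without the transection day 37 array and 6 without the transection day 10 array. Members were higher on day 37 than on day 4 in 37 of 50, where 52.3% of all probe sets were higher. Without the saline day 4 array it was 31 of 50. Pde1b had a difference of 0.65 ± 0.17 between those days (limma adjusted p = 0.147) and was higher on day 37 than on day 4 after every intervention. Pde4a, Pde4b M25350_s_at and Prkaca X57986mRNA_r_at had differences of 0.57, 0.50 and 0.47 (limma adjusted p = 0.161, 0.187 and 0.208).

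The lesion side was set against the contralateral side in 6 pairs of arrays, 1 for each intervention on days 10 and 37. No member passed the adjusted threshold, beside 0%, and 1 had an unadjusted p under 0.05 in limma, beside 4.96%. Leaving out a pair gave between 0 and 4. The member was Gng5, higher on the lesion side in 5 of 6 pairs (0.28 ± 0.12 log2, limma adjusted p = 0.945). Its pair differences were 0.35 and 0.07 on days 10 and 37 after transection, -0.37 and 0.53 after lysolecithin and 0.59 and 0.53 after saline.

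Rgs8, Pde2a, Pde1b and Pde4a had their lowest side differences in the day 10 transection pair, whereas Gnaz U77483mRNA_s_at had its lowest, -0.98, in the day 10 lysolecithin pair. The lesion side minus contralateral difference of Rgs8 was -1.10 on day 10 and 0.13 on day 37 after transection, -0.18 and 0.19 after lysolecithin and -0.11 and 0.24 after saline. For Pde2a it was -0.96 and -0.25 after transection, 0.45 and 0.13 after lysolecithin and -0.09 and 0.17 after saline. For Pde4a it was -1.06 and 0.03 after transection, -0.37 and 0.17 after lysolecithin and -0.06 and -0.17 after saline. Each value compares 1 array with 1 other and has no replicate. In the day 10 transection pair, Pde2a was Absent on both arrays and Pde4a on the lesion array. The contralateral array of that pair was the highest control for Pde2a and Pde4a, at 270.5 and 1533.1. For Rgs8 that array read 480.9, among controls of 292.8 to 497.7. Gnb1 U88324_at differed by 0.21 and 0.13 between the sides after transection, and by -0.08 to -0.04 after lysolecithin and saline.

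**Figure D4:**
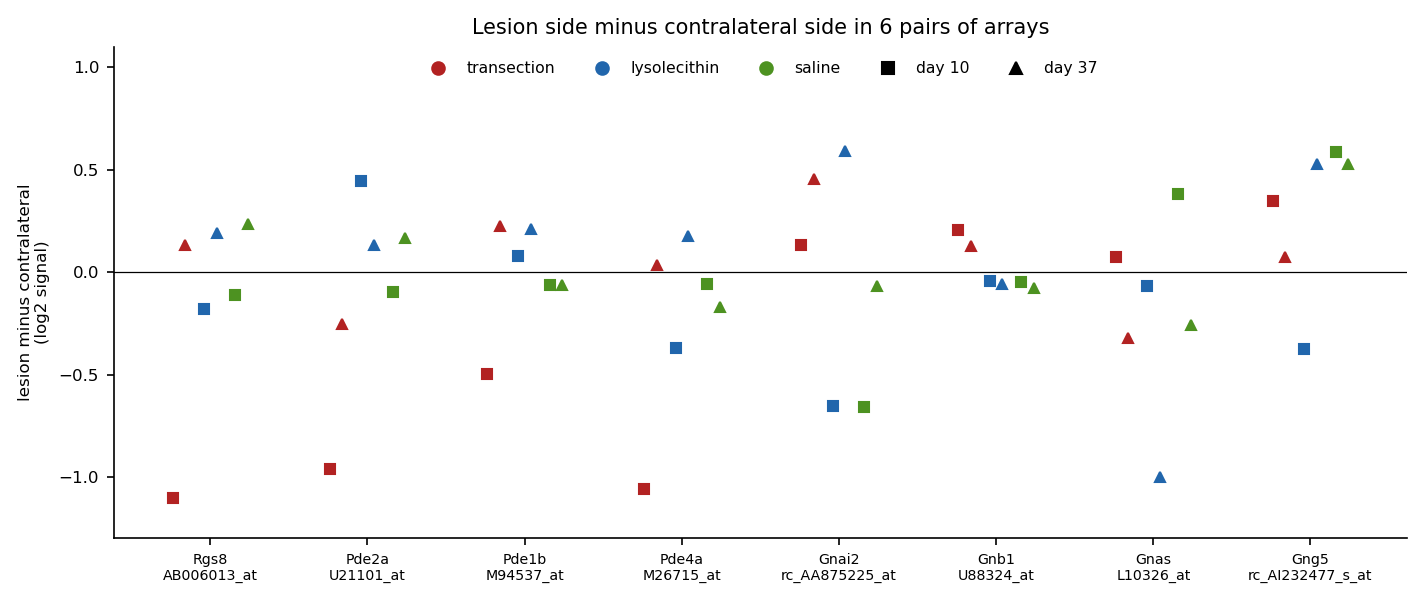
Lesion side minus contralateral log2 signal (vertical) in single pairs of arrays for 8 probe sets, coloured by intervention, with squares for day 10 and triangles for day 37. Rgs8, Pde2a and Pde4a lie near -1 on day 10 after transection (-1.10, -0.96 and -1.06) and between -0.37 and 0.45 in the other pairs. In that day 10 pair, Pde2a was Absent on both arrays and Pde4a on the lesion array.

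On the contralateral side, 2 arrays stood for each intervention. No member passed the adjusted threshold for transection against saline, beside 0%, or for lysolecithin against saline, beside 0.0227%. At an unadjusted p under 0.05 limma marked 1 member after transection, beside 3.15%, and 4 after lysolecithin (1 higher, 3 lower), beside 3.60%. Leaving out a single contralateral array gave 1 to 3 and 2 to 6. The transection member was Gnb1 AF022083_s_at, at 1036.6 and 905.9 on contralateral transection arrays of days 10 and 37, against 687.9 and 590.7 on contralateral saline arrays (0.59 ± 0.25 log2, limma adjusted p = 0.999). The other Gnb1 probe sets were not marked but went the same way. U88324_at read 1786.0 and 2060.6 on the contralateral transection arrays, against 1424.6 and 1678.0 after saline. U88324_g_at read 2860.9 and 3630.2, against 2090.9 and 2830.9. All 3 Gnb1 probe sets, the called one included, thus stood higher after transection on both sides of the brain. After lysolecithin, contralateral Rgs4 read 649.7 and 558.5, against 899.7 and 1075.7 after saline (-0.69, limma adjusted p = 0.828). Gnai1 and Gnb5 AF001953_g_at were lower by log2 differences of -0.59 and -0.55 and Gng10 was higher by 0.53 (limma adjusted p = 0.999 for each).

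The change of side differences between day 10 and day 37 gave no member past the adjusted threshold, beside 0%, and 3 members (2 higher, 1 lower) at an unadjusted p under 0.05 in limma, beside 5.37%, and 2 to 5 with a pair left out. They were Rgs8, Gnai2 rc_AA875225_at and Gnas L10326_at, at 0.65, 0.72 and -0.66 log2 (limma adjusted p = 0.885 for each).

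Other genes of the pathway were taken from lists of receptors, receptor kinases and arrestins, G protein regulators, cyclic AMP and cyclic GMP effectors and phospholipase C. Of these genes 83 were on the array and 56 probe sets of 43 genes were tested. None passed the adjusted threshold in any comparison. In limma at an unadjusted p under 0.05, 8 were marked in transection against saline (4 higher, 4 lower), 12 in lysolecithin against saline (7 higher, 5 lower) and 10 in transection against lysolecithin (2 higher, 8 lower), beside 16.9%, 20.6% and 13.6% of all probe sets. The kinase Grk2, which desensitises receptors, was lower after transection than after lysolecithin by a log2 difference of -0.65 ± 0.14 (limma adjusted p = 0.0845). Arrb2, the arrestin that binds receptors so phosphorylated, differed by -0.46 (limma adjusted p = 0.197). The GABA-B receptor subunit Gabbr1 differed by 0.75 ± 0.16 in AB016160_g_at after lysolecithin against saline. Pkia, the inhibitor of protein kinase A, differed by -0.75 ± 0.16 in rc_AA893743_g_at (limma adjusted p = 0.0749 for each). Pkia rc_AA893743_at gave -0.60, whereas Gabbr1 AB016160_at and Pkia L02615_at were not marked in that comparison. The presynaptic glutamate receptor Grm2, which couples to Gi, differed by -0.69 in transection against saline (limma adjusted p = 0.132).

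The peptide PACAP raises cyclic AMP through Gs, and its precursor Adcyap1, no member of the set, rose in transection against saline. Its probe set rc_AI228407_s_at gave a log2 difference of 1.70 (limma adjusted p = 0.0315), and its other probe sets X80290cds_s_at and M63006_at gave 1.48 and 0.66 (adjusted p = 0.0358 and 0.0457).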

How the data were processed

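Per the labels, total RNA of 16 samples was converted to biotin-labelled cRNA and hybridised to a rat Affymetrix array. Each deposited file gives, per the file headers, a linear signal intensity for each of 8799 probe sets with a detection call and its detection p-value. Per the submitters' processing notes the authors used MAS5; its version is not given in the sources used here. The intensity values carry the authors' scaling, with a trimmed mean of 800 on every array. No raw scanner data were used here, so the number of arrays limits the precision.

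Signals were kept as deposited, 16 was added and log2 taken. After 59 control probe sets were dropped, the tests took those with a Present call on 3 or more arrays (4413 probe sets, 2713 genes). Groups came from the sample titles. limma 3.58.1 in R 4.3.3 was fitted with intervention and day for lesion-side contrasts, with groups alone against controls, and with the pair as a block for the sides, using empirical Bayes with an intensity trend and Benjamini-Hochberg adjustment at 0.05. Lesion and contralateral arrays were paired because their titles share intervention and day. The pipeline was tested on simulated data. Fold changes on log2(signal + 16) understate dim probe sets. Where a probe set was Absent on every array of a group, its fold was computed against the higher of the lowest Present signal on each array and the probe set's own signal. For the folds given here that was the probe set's own signal, so they are estimates and not lower bounds. Symbols came from the platform annotation (6283 probe sets with 1 symbol, 280 with several, 2236 with none), and all 79 members matched a RefSeq symbol. Promoter sequences are RefSeq's, build GRCr8.

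Members named with values had an adjusted p under 0.05, or an unadjusted p under 0.05 with the same direction on every day or pair (at most the 12 largest per comparison), or were the brightest tested member of a family; other members with values are shown to account for a family. Members and lists were chosen with earlier results of these data known. Alternatives changed the offset, filter, scaling, trend, value table, day term, controls and arrays.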

Additional observations from a re-analysis of the deposited data

Results flagged for a closer look

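Rgs8 AB006013_at had a lesion side minus contralateral difference that was above 0 in all 3 pairs of day 37 and below 0 in all 3 pairs of day 10, the interventions being transection, lysolecithin and saline. The day 37 differences ran between 0.135 and 0.236 with a mean of 0.19, and those of day 10 between -1.10 and -0.109 with a mean of -0.46. The change between the days was 0.6523 on the log2 scale (SE 0.274; limma unadjusted p = 0.0344, adjusted p = 0.885), so it did not pass the adjusted threshold. The lowest day 10 difference was that of transection.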

How the results depend on the processing

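In transection against saline on the lesion side, 2 members passed the adjusted threshold. That number was 0 with no filter on detection, 0 with no intensity trend, 0 with no day term, 0 on lesion minus contralateral differences, 1 after quantile normalization (Rgs8) and 1 with the series value table (Gnai2). Leaving out a single array gave 0 to 2 for this contrast, 0 to 2 for transection against controls and 0 to 3 for lysolecithin against saline. The 2 against controls were Pde2a and Rgs8 without the transection day 37 array, and the 3 were Gnai2 rc_AA875225_at, Gnas L10326_at and Pde4b rc_AA799729_g_at without the saline day 37 array. Over all alternatives the adjusted p in transection against saline ran between 0.0245 and 0.997 for Gnai2 rc_AA875225_at, between 0.0424 and 0.997 for Gnb1 U88324_at and between 0.0289 and 0.997 for Rgs8. On lesion minus contralateral differences Gnb1 U88324_g_at turned to -0.0327 and Gnb1 AF022083_s_at to -0.1213, while Gnb1 U88324_at fell to 0.2288. The cause was not tested. Calls over all probe sets ran between 0 and 64 for transection against controls, 0 and 56 for transection against saline, 0 and 95 for lysolecithin against saline and 0 and 31 for transection against lysolecithin, so every count of calls here depends on these choices. The side comparison called 0 members with the pair as a block and 0 with no replicate block. Pde2a, Pde4a, Gnaz and Prkar2b were called Present on 4 to 6 arrays, so none of them met the alternative filter of a Present call on at least 8 arrays.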
